A study of Harpegnathos saltator with 18 samples.

Results

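A set of 161 genes of the ant Harpegnathos saltator stood at 1 RPKM or more in each of the 3 ovary libraries and under 1 RPKM in each of the 15 libraries from other tissues. RPKM is the number of reads per kilobase of gene model and megaread (M reads) of the library. The set was drawn from 20317 rows with HSALG identifiers, 0.792% of them, and from the 8618 HSALG rows that reached 1 RPKM in every ovary library. The ovary came from gamergates, which are mated and egg-laying workers, while workers gave the other tissues: fat body, antenna, retina, optic lobe and non-visual brain, with 3 libraries of polyadenylated RNA each. The sources used here do not give age or the number of animals per library, and the spread between libraries may therefore be technical. All animals were kept in 1 kind of nest and fed live crickets. Caste and tissue cannot be told apart, because worker ovaries and gamergate heads or fat bodies were not analysed here. In whole tissues, fewer cells of a type and less RNA per cell cannot be told apart either.

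The insect ovary is built of ovarioles, tubes in which germline stem cells give rise to cysts, and the oocyte grows while nurse cells supply it with RNA and protein. Follicle cells surround each oocyte and later secrete the vitelline membrane and the eggshell. In most ants workers keep small ovaries, whereas in Harpegnathos a worker can take over reproduction and lay eggs. A RefSeq table of 14329 genes was searched for names and held 0 of the 20755 identifiers. The genes are therefore given by identifier, with no name or role, the germline and follicle cell markers could not be looked up, and no sequence is shown.

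Because the rule used every library, the contrast of ovary with the other tissues is described here and not tested. The label of the set holds at 1 RPKM and not at the level of single reads. Each deposited RPKM value stands for a whole number of reads, which allowed reads, gene lengths and library totals to be recovered. With 67.56 M reads of ovary in all, the set held 158678 reads in ovary and 2698 reads in the 15 worker libraries. At least 1 worker read was seen for 116 of the 161 genes, and none for 45.

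**Figure D1:**
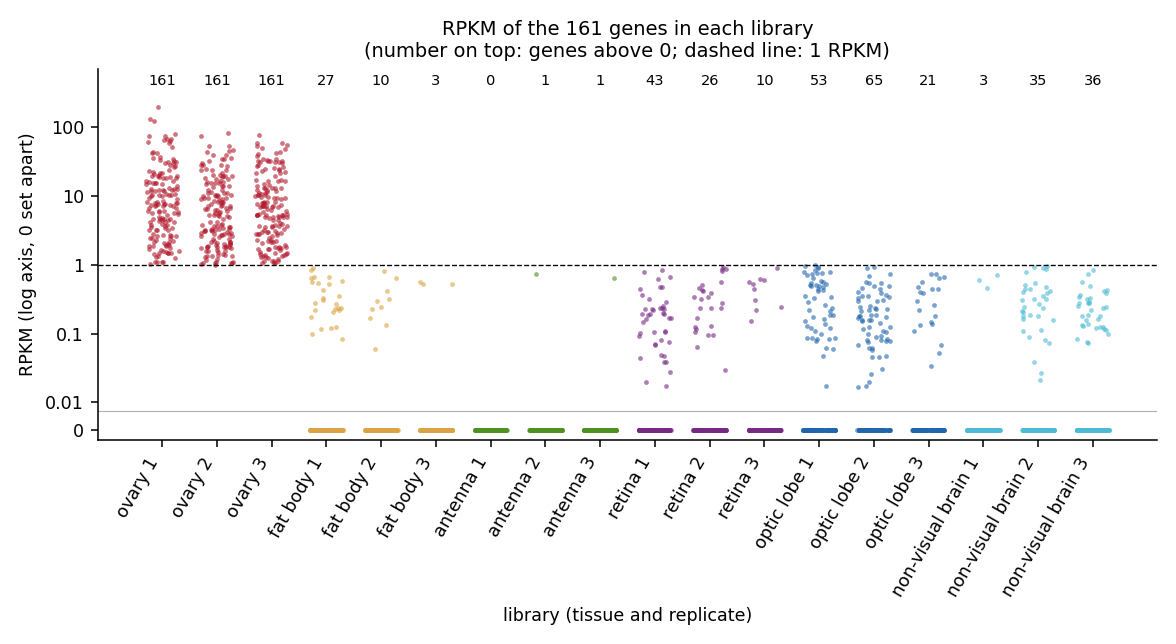
RPKM of the 161 genes (1 point per gene) in each of the 18 libraries, on a log axis with values of 0 set apart at the bottom; the number on top counts the genes above 0 and the dashed line marks 1 RPKM. All 161 genes lie above 0 in each ovary library, against 0 to 65 in a worker library.

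The genes were of low to moderate abundance in ovary. Their mean RPKM over the ovary libraries ran from 1.16 to 94.0, with a median of 7.0 and quartiles of 2.89 and 15.8. Over all 8618 genes at 1 RPKM or more in each ovary library the median was 12.4 and the highest mean 56079 RPKM. Of the 161 genes, 23 averaged under 2 RPKM, 40 from 2 to under 5, 39 from 5 to under 10, 27 from 10 to under 20, 26 from 20 to under 50 and 6 from 50 to under 100 RPKM. No gene of the set reached a mean of 100 RPKM, although 421 of the 8618 genes did. Together the set took 0.639%, 0.416% and 0.48% of the RPKM in ovary replicates 1, 2 and 3.

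HSALG022412.1 had the highest mean. It stood at 195.9, 27.4 and 58.8 RPKM in ovary replicates 1, 2 and 3, a mean of 94.0 ± 89.6 RPKM (SD, n = 3), and its highest worker value was 0.556 RPKM in fat body replicate 1, which came from its only 5 worker reads. Its place at the top rests on ovary replicate 1. HSALG029686.1 was second, at 78.7, 74.0 and 77.3 RPKM in the ovary libraries (76.7 ± 2.39 RPKM), with 12 worker reads and a worker maximum of 0.66 RPKM, also in fat body replicate 1. The ovary libraries of this gene differed by 1.06 times at most. Without ovary replicate 1 HSALG022412.1 averaged 43.1 RPKM and HSALG029686.1 averaged 75.7 RPKM.

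At the middle of the range, HSALG020060.1 stood at 4.49, 10.2 and 6.35 RPKM in the ovary libraries (7.0 ± 2.89 RPKM), with 4 worker reads. HSALG022415.1 stood at 11.9, 3.49 and 5.22 RPKM in the ovary libraries (6.88 ± 4.47 RPKM), also with 4 worker reads, all in retina replicate 3. These genes differ in which ovary library is highest, replicate 2 for HSALG020060.1 and replicate 1 for HSALG022415.1.

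The threshold cut through a continuous range. Just inside it, HSALG011421.2 stood at 3.52, 1.003 and 2.11 RPKM in the ovary libraries, and HSALG001480.2 at 1.03, 1.87 and 5.75 RPKM. Just outside it, HSALG028853.1 was listed at 0 in all worker libraries and missed the rule with 0.982 RPKM in ovary replicate 2, against 3.15 and 4.6 RPKM in replicates 1 and 3. HSALG004219.2, at 1.27, 0.962 and 1.97 RPKM, missed it in the same library. On the worker side, HSALG014104.2 was the member closest to the limit, at 0.982 RPKM in optic lobe replicate 1, followed by HSALG009788.2 at 0.968 RPKM in the same library. HSALG005224.2 missed the rule with 1.00004 RPKM in non-visual brain replicate 1, and HSALG007451.2 with 1.01 RPKM in retina replicate 1.

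**Figure D2:**
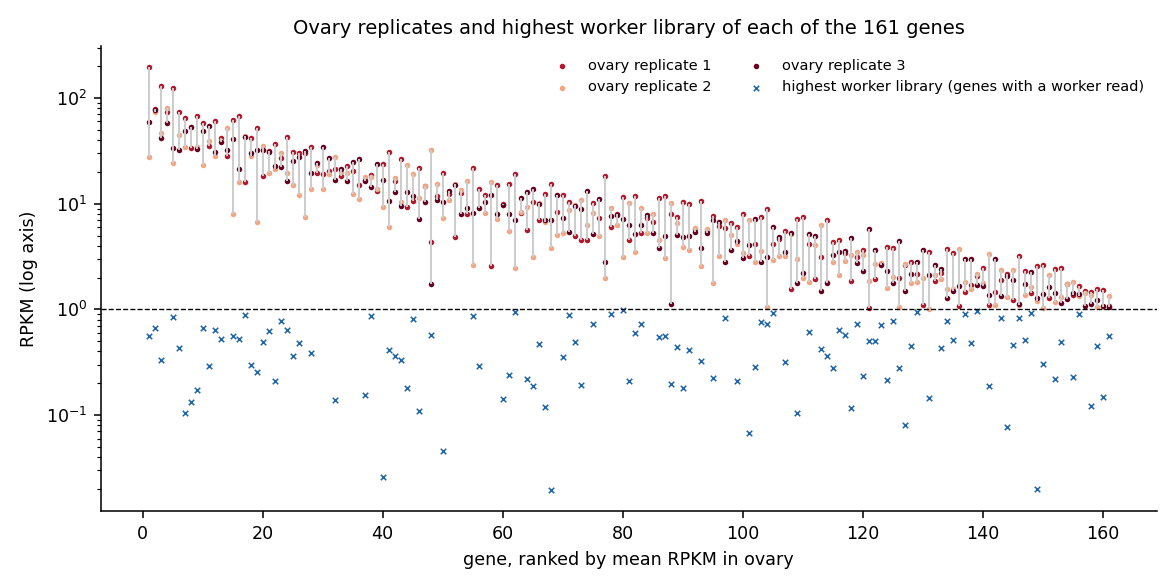
RPKM (log axis) of the 161 genes ranked by their mean in ovary; circles are the 3 ovary libraries, grey lines join them, and crosses give the highest worker library of the 116 genes with a worker read. Ovary values run down to the dashed line at 1 RPKM without a gap, and every cross lies under it.

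The ovary libraries differed from each other in this set, by a smaller median ratio than over the 8618 genes, a difference that was not tested. The ratio of the highest to the lowest ovary library had a median of 2.06 in the set and 2.5 over the 8618 genes, and the median coefficient of variation was 38.9% in the set and 46.5% over those genes. The libraries were not ordered alike. Ovary replicate 1 was the highest library for 82 of the 161 genes, 50.9%, against 69.0% of the 8618 genes. Ovary replicate 2 was the highest for 42 genes of the set, 26.1%, against 9.1%, and the lowest for 75 genes, 46.6%, against 66.6%. The median RPKM of the set was 7.55, 5.53 and 6.35 in ovary replicates 1, 2 and 3, where all 8618 genes had medians of 17.3, 7.60 and 10.6. RPKM is a share of a library total, and the totals of the ovary libraries were 22.8, 30.07 and 14.69 M reads. Across the set, whose genes are no independent replicates, Pearson's r of log2(RPKM + 1) was 0.776 between ovary replicates 1 and 2, 0.857 between 1 and 3 and 0.86 between 2 and 3. Over the 8618 genes it was higher, at 0.835, 0.895 and 0.875 for the same pairs.

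A few genes differed widely between ovary libraries. In 13 of the 161 genes, 8.07%, the highest library was at least 5 times the lowest, against 10.33% of the 8618 genes. Of these 13, 9 were highest in replicate 1 and 9 were lowest in replicate 2. Among genes with a mean of at least 5 RPKM, HSALG009852.2 was the most uneven, at 4.37, 32.3 and 1.72 RPKM in ovary replicates 1, 2 and 3 (ratio 18.8), and it was high in replicate 2 alone. HSALG029685.1 stood at 18.4, 1.98 and 2.84 RPKM (ratio 9.28) and was high in replicate 1 alone. HSALG025004.1 was the most even, at 9.89, 9.76 and 9.67 RPKM (ratio 1.02).

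The worker tissues held traces of many of these genes, all under 1 RPKM by the rule. At least 1 read over the 3 libraries of a tissue was seen for 80 of the 161 genes in optic lobe, 57 in retina, 55 in non-visual brain, 33 in fat body and 1 in antenna. Reads in the worker libraries were spread unevenly over the genes: 10 genes held 42.4% of them, and 13 genes held 50%. By the number of worker tissues with a read, 45 genes had none, 52 had 1, 29 had 2, 24 had 3 and 11 had 4, and no gene had reads in all 5.

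The number of genes seen differed between libraries of a tissue and did not follow depth throughout. Optic lobe replicate 2, the deepest worker library at 26.49 M reads, showed 65 of the genes, optic lobe replicate 1 showed 53 and optic lobe replicate 3 showed 21. Antenna replicates 1, 2 and 3, with 4.73, 2.37 and 3.04 M reads, showed 0, 1 and 1. In fat body, replicate 1 with 14.69 M reads showed 27 of the genes and the deeper replicate 2 with 16.22 M reads showed 10. At the median length of the set, 1 RPKM corresponds to 1.73 to 3.45 reads in an antenna library, so the antenna value rests on few reads. In optic lobe replicate 2 it corresponds to 19.3 reads. Under the rule a few antenna reads would thus be enough to keep out a gene of that length, and the rule bounds the antenna count more closely than the others. Of the 21 genes kept out by antenna replicate 2 alone, 1 had 6 reads or fewer there. A gene of that length with no read in the 3 antenna libraries could stand at up to 0.406 RPKM there, counting 3 reads over the tissue as the limit, against 0.0731 RPKM in optic lobe. Such limits take reads as independent and cover no other error. The part of depth in these counts and in the order of the tissues was not tested.

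Summed over the set and scaled for depth, the 161 genes reached 2092 ± 472 RPKM in ovary (SD, n = 3), 14.2 ± 6.62 in optic lobe, 7.76 ± 2.78 in retina, 7.70 ± 5.30 in non-visual brain, 4.93 ± 4.40 in fat body and 0.456 ± 0.398 in antenna. The highest worker library, optic lobe replicate 1, stood at 0.964% of the mean ovary sum. Libraries of a tissue differed severalfold: non-visual brain replicates 1, 2 and 3 summed to 1.75, 11.9 and 9.43 RPKM, and fat body replicates 1, 2 and 3 to 9.92, 3.30 and 1.59 RPKM. The ranges of optic lobe, retina, non-visual brain and fat body overlapped. No order among these tissues was tested, because the rule bounds their values.

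**Figure D3:**
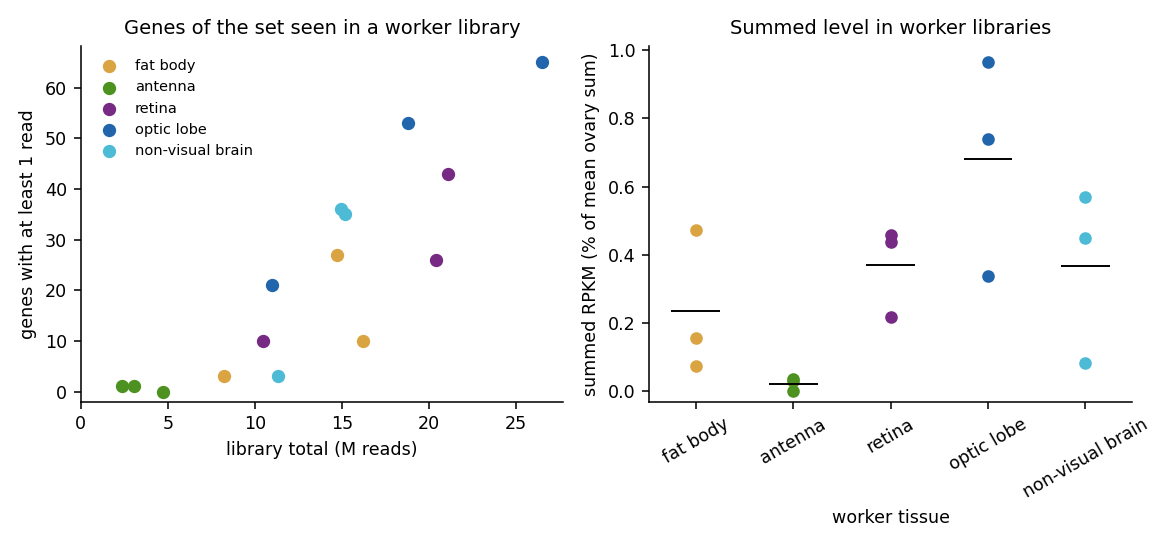
Left, number of the 161 genes with at least 1 read in each of the 15 worker libraries against the library total in M reads; right, summed RPKM of the genes in each worker library as a percentage of the mean ovary sum, with black lines at tissue means. The counts run from 0 genes in antenna replicate 1 to 65 in optic lobe replicate 2, the deepest worker library, without following depth throughout, and every worker sum lies under 1% of the ovary sum.

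The rule bounds both the ovary and the worker values of the set, so a relation between them is read from truncated values. Spearman's rho between the mean ovary RPKM and the RPKM pooled over the worker libraries was -0.044 across the 161 genes, a description of genes measured in the same libraries. No worker read was seen for 20 of the 59 genes at 10 RPKM or more in ovary and for 25 of the 102 genes under 10 RPKM. With the cut at 5 RPKM it was 32 of 98 genes and 13 of 63. With the cut at 20 RPKM it was 6 of 32 genes and 39 of 129, so the direction depended on the cut. Genes with no worker read had a median length of 444 bases, against 837 bases for the 116 others. Genes with no worker read were seen in the 3 ovary libraries alone, where a recovered length is most apt to fall short of the true one. The part of the recovery in this difference, and of length in the count of genes without a worker read, was not tested.

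For the 45 genes without a worker read, a lower limit of the fold was computed from the reads of the ovary libraries together and 3 reads over the 15 worker libraries together. This limit takes each read as independent and is too high where worker reads come in pairs. It had a median of 223-fold over the 45 genes and was 100-fold or more in 37 of them. HSALG000005.2 gave the highest limit. It stood at 22.9, 19.7 and 16.4 RPKM in the ovary libraries, with 2837 ovary reads, and its limit was 2785-fold. HSALG025531.1 was the most abundant gene without a worker read, at 73.2, 80.8 and 58.5 RPKM in the ovary libraries (70.8 ± 11.3 RPKM). Its limit was 1942-fold. In both genes the ovary libraries lay within 1.4 times of each other.

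For the 116 genes with worker reads the pooled ratio of ovary to worker libraries had a median of 154 and ran from 5.69 to 4559. It was 100 or more in 67 genes and under 10 in 5. HSALG026573.1 had the highest ratio, 4559 with an exact 95% counting interval of 817 to 180176, from 1548 ovary reads and 1 worker read in optic lobe replicate 2. HSALG028222.1 followed with 4043 (724.5 to 159820), from 1373 ovary reads and 1 worker read in retina replicate 1. Intervals this wide show that a single read sets these ratios. They take reads as independent and are too narrow where reads come in pairs.

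At the other end, HSALG003750.2 had 199 ovary and 103 worker reads, a ratio of 5.69 (4.46 to 7.29). It stood at 1.65, 1.35 and 1.39 RPKM in the ovary libraries and at up to 0.898 RPKM in optic lobe replicate 1. HSALG009788.2 had a ratio of 6.08 (5.05 to 7.35), with 2.08, 2.18 and 1.70 RPKM in the ovary libraries and reads in 8 worker libraries. The other genes with a ratio under 10 were HSALG025162.1, HSALG026575.1 and HSALG027424.1. These 5 genes were named after their values were seen. The single gene with antenna reads was HSALG006583.2, at 5.30, 9.04 and 6.25 RPKM in the ovary libraries against 0, 0.733 and 0.635 RPKM in antenna replicates 1, 2 and 3. HSALG010212.2 had the most worker reads, 180, against 1555 in ovary.

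A fit of the 12996 genes that reached 1 RPKM in 3 or more libraries placed the set on the scale of the whole table. A gene was called higher in ovary when it was at least 2-fold above each of the 5 worker tissues and its largest one-sided p-value, adjusted by the method of Benjamini and Hochberg, was under 0.05 in limma. All 161 genes passed the filter on low values through their ovary libraries. Of the 161 genes 156 were called, 96.9%, against 4.54% of all genes tested, or 590 genes. The 156 made up 26.4% of the called genes. Since the rule fixed this contrast, the count describes how large the differences of the genes were and is no evidence of their direction. The log2 difference to the highest worker tissue, on the log2(RPKM + 1) scale that understates low genes, had a median of 2.7 in the set, against -0.75 over all genes tested. It was largest for HSALG025531.1, at 6.15 (SE 0.33), and for HSALG029686.1, at 6.04 (SE 0.35). The 5 genes not called were HSALG003750.2, HSALG009788.2, HSALG020199.1, HSALG025162.1 and HSALG027424.1, with means of 1.16 to 1.99 RPKM in ovary and log2 differences between 0.72 and 0.92, each under the 2-fold limit.

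A library left out took no part in the choice, but whether it shares animals with the other libraries is not known. In each case the candidates on the rule's side were the same 161 genes. The share therefore depends only on how many further candidates qualified. When genes were chosen without ovary replicate 1, 172 genes qualified, and 161 of them, 93.6%, stood at 1 RPKM or more in that library. Among all HSALG rows 49.5% did so, but among the 8736 rows at 1 RPKM or more in both other ovary libraries 98.6% did. Chosen without ovary replicate 3, 173 genes qualified and 93.1% reached 1 RPKM there, against 97.7% of the 8821 rows at 1 RPKM or more in ovary replicates 1 and 2 and 47.7% of all rows. Chosen without ovary replicate 2, 204 genes qualified and 78.9% reached 1 RPKM there, against 92.5% of the 9312 rows at 1 RPKM or more in replicates 1 and 3 and 44.6% of all rows. In each of the 3 ovary libraries the candidates' share was under that of the rows detected in the other ovary libraries, a difference that was not tested. The genes of the set were of lower median abundance than ovary genes in general, as given above, and the part of abundance in these shares was not tested. Of the 43 candidates under 1 RPKM in ovary replicate 2, 4 were listed at 0. Replicate 2 was the deepest ovary library and the one that removed the most candidates.

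**Figure D4:**
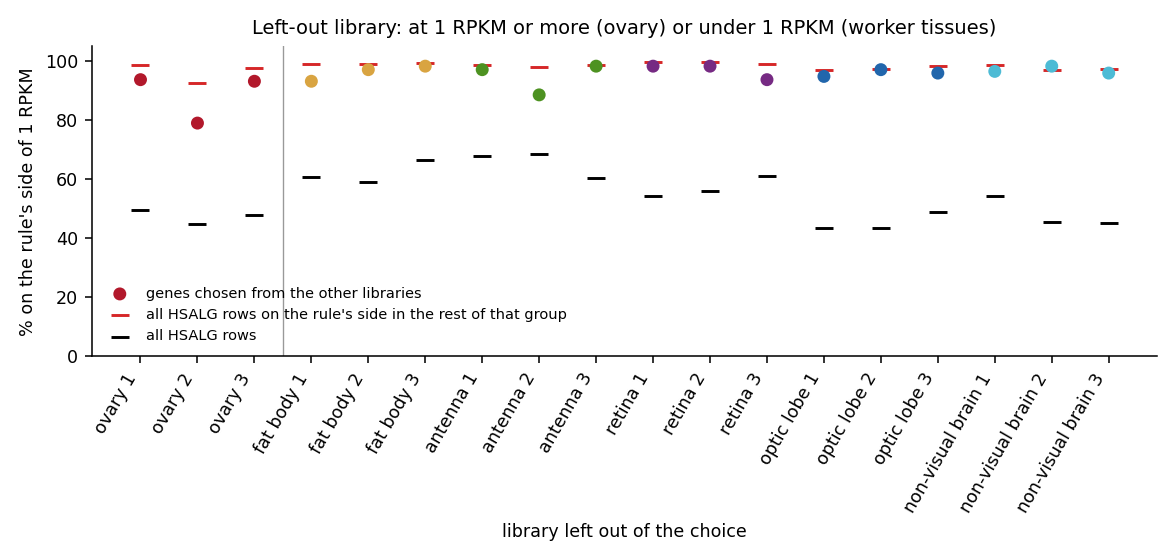
Percentage of genes, chosen by the rule from all libraries but 1, that lie on the rule's side of 1 RPKM in the library left out (coloured circles), with the same percentage over the HSALG rows on the rule's side in the rest of that group (red bars: other ovary, or other worker, libraries) and over all HSALG rows (black bars); the vertical line parts ovary libraries, read at 1 RPKM or more, from worker libraries, read under 1 RPKM. Ovary replicate 2, at 78.9%, and antenna replicate 2, at 88.5%, are the lowest on each side, and the circles lie under the red bars in all 3 ovary libraries and in 14 of the 15 worker libraries.

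Among worker libraries, antenna replicate 2 removed the most genes. Chosen without it, 182 genes qualified, and 88.5% of them were under 1 RPKM there, against 97.9% of the 5952 HSALG rows under 1 RPKM in the other 14 worker libraries and 68.5% of all HSALG rows. For the other 14 worker libraries the share was 93.1% to 98.2%, against 96.9% to 99.5% of the HSALG rows under 1 RPKM in the remaining worker libraries, and it was under that of those rows in 13 of the 14. In fat body replicate 1 it was 93.1%, against 99.0% of those rows, and in retina replicate 3 it was 93.6%, against 98.8%. Most of those rows did not reach 1 RPKM in each ovary library, so they are not matched to the candidates in ovary level. These differences were not tested. In all, 103 genes at 1 RPKM or more in each ovary library missed the rule through 1 worker library only, and antenna replicate 2 accounted for 21, fat body replicate 1 for 12 and retina replicate 3 for 11. The 21 genes kept out by antenna replicate 2 averaged a median of 23.1 RPKM in ovary, above the 7.0 RPKM of the set, and a median of 3.16 RPKM in that library. Of the 21, 1 had 6 reads or fewer in that library. The most abundant of them averaged 265.5 RPKM in ovary. Of the 103 genes, 63 stood under 2 RPKM in the library that kept them out, and 8 had a higher mean in ovary than any gene of the set. In all, 454 of the 8618 genes had a mean in ovary above the 94.0 RPKM of the highest gene of the set.

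The same rule run for the other tissues gave far fewer genes: 29 in optic lobe, 16 in retina, 12 in non-visual brain, 11 in antenna and 1 in fat body. As a share of the genes at 1 RPKM or more in each library of a tissue, this was 1.868% in ovary, 0.299% in optic lobe, 0.276% in antenna, 0.231% in retina, 0.14% in non-visual brain and 0.018% in fat body. Non-visual brain and optic lobe are parts of the nervous system, and a gene found in both counts for neither. The deepest library was of ovary, and no other tissue came from gamergates. The part of depth was not tested here either, and caste and tissue cannot be told apart.

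Coding length was not used by the rule. Lengths were recovered for all 161 genes, and 160 of them were multiples of 3, as 98.2% of all recovered HSALG lengths were. The recovery set the library totals so that HSALG lengths fell on multiples of 3, and it tried such lengths first. These shares are therefore in part fixed by the method and are no check of the lengths. The median was 729 bases, with quartiles of 426 and 1488 bases, against 1137 bases (618 and 1940) for the 8618 genes at 1 RPKM or more in each ovary library and 778 bases (420 and 1531) for all 16884 HSALG rows with a length. Of the set, 12.4% of genes were under 300 bases and 27.3% from 300 to under 600 bases, against 6.4% and 17.5% of the 8618 genes. These differences in length were not tested. A recovered length is the shortest of those tried that makes every value a whole number of reads, so it can fall short where a gene was seen in few libraries.

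**Figure D5:**
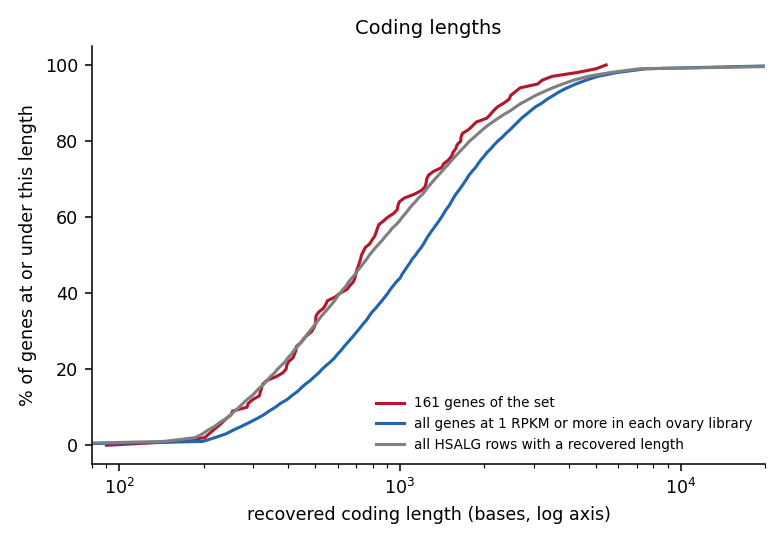
Percentage of genes at or under each recovered coding length (bases, log axis) for the 161 genes, for the 8618 genes at 1 RPKM or more in each ovary library and for all HSALG rows with a recovered length. The line of the set lies left of that of the ovary genes, with medians of 729 and 1137 bases, and close to that of all rows (778 bases).

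HSALG022050.1 was the longest gene of the set with 5427 bases, and it stood at 2.81, 1.80 and 2.16 RPKM in the ovary libraries with reads in 6 worker libraries. HSALG006583.2 followed with 5184 bases. HSALG022298.1 was the shortest with 90 bases, and its 1.46, 1.11 and 3.03 RPKM rest on 10 reads in the ovary libraries together. HSALG013381.2, with 114 bases, stood at 7.31, 5.25 and 7.76 RPKM from 50 reads. Length and mean ovary RPKM were weakly related across the 161 genes (Spearman's rho 0.115). Read numbers of short genes varied, and HSALG022421.1, of 192 bases, had 151 reads in the ovary libraries.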

How the data were processed

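RPKM values were deposited by the authors for 18 libraries, 1 column each with no pooling of replicates, in a table of 20755 rows (20317 HSALG and 438 XLOC). Per the submitters' processing notes STAR 2.5.0b and DESeq2 were used, with no role stated; the sources used here do not give genome build, annotation or counting. Per the labels' protocols the libraries were unstranded and copied from random hexamers, so reads of overlapping antisense genes cannot be told apart, and the splitting of reads between near-identical copies is unknown.

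Reads, lengths and totals were recovered for 93.1% of rows above 0, with values whole within the print rounding plus a relative 4.5e-06. Totals ran from 2.37 to 30.07 M reads. Of read numbers from 1 to 10, 47.59%, 52.09% and 50.87% were even in ovary replicates 1, 2 and 3. In the worker libraries the share ran from 49.38% in optic lobe replicate 2 to 67.57% in antenna replicate 2. Where even numbers are in excess, reads are not independent. Intervals and the floor of 3 reads take each read as independent and cover no other error. Where reads come in pairs the intervals are too narrow and the fold limits too high. The recovery and the limma fit were tested on simulated data.

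In R 4.3.3, limma 3.58.1 was fitted to log2(RPKM + 1), all 6 tissues in 1 fit, a mean-variance trend, no block. Named genes are the 2 extreme or middle genes of each property described, and any class of 5 or fewer. The genes given for consecutive numbers, and HSALG022421.1 as a short gene, are examples picked outside this rule. The lowest pooled ratios, the most worker reads and the comparison of left-out libraries with rows on the same side elsewhere in the group were added after values were seen. The members and lists were chosen with earlier results of these data known. Marker lists work on gene names and were not applied.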

Additional observations from a re-analysis of the deposited data

Results flagged for a closer look

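The rule took HSALG rows only, and the 438 rows with XLOC identifiers were outside it. Of these, 8 loci met the same limits, 1 RPKM or more in each ovary library and under 1 RPKM in each worker library. They are 1.83% of the XLOC rows, against 0.792% for HSALG rows. No worker read was seen for 3 of the 8. XLOC_080113 stood at 34.4, 7.68 and 19.2 RPKM in ovary replicates 1, 2 and 3 (20.4 ± 13.4 RPKM, SD, n = 3). With 3 independent reads over the 15 worker libraries as the floor, it was at least 601-fold higher in ovary than in the pooled worker libraries. XLOC_111767 stood at 20.8, 5.49 and 11.7 RPKM in the ovary libraries and was at least 805-fold higher there. XLOC_079709 stood at 18.2, 7.5 and 8.49 RPKM and was at least 596-fold higher. The others had 4 to 82 worker reads, and XLOC_114525 came closest to the limit, at 0.826 RPKM. The sources used here do not say what these loci are.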

How the results depend on the processing

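The number of genes that met the rule, 161, depended on where the limits stood. It was 52 with under 0.1 RPKM in the worker libraries, 45 with a value of 0 there, 73 with 5 RPKM in each ovary library and 418 with tissue means in place of libraries. It was 150 and 181 with 0.5 and 2 RPKM on both sides, of which 114 and 109 were shared with the 161, and 194 without the antenna libraries. It ran from 164 to 204 when each library was left out, highest without ovary replicate 2. It was 136 with libraries rescaled to the same sum, 149 with trimmed-mean factors and 155 after quantile normalization. Of these, 129, 130 and 124 were shared with the 161. The summed RPKM of a library ran from 218401 in optic lobe replicate 2 to 447555 in fat body replicate 3. A value of 1 RPKM is therefore not the same share of that sum in each library. Of the 161 genes, limma called 95 with a pseudocount of 5 and 114 after quantile normalization in place of 156, and 150 to 156 with each library left out. Over all genes it called 1000 with library weights and 347 with a pseudocount of 0.1 in place of 590, and 463 to 656 with each library left out. The median log2 difference of the set, 2.70, was 5.39 and 1.20 with pseudocounts of 0.1 and 5, 2.42 with libraries rescaled to the same sum, 1.84 after quantile normalization, and 2.62 to 2.80 with each library left out. The median ovary level, 7.0 RPKM, was 10.2 by the highest library, 3.88 by the lowest, 5.69 with the same sum, and 5.66 to 7.39 with each ovary library left out. Genes without a worker read numbered 45 to 56 with each worker library left out. The median length, 729 bases, was 792 bases for genes at 5 RPKM or more in each ovary library and 727.5 bases over multiples of 3. The share found again in ovary replicate 1, 93.6%, was 88.8% at 0.5 RPKM. The cause of these shifts was not tested. Of 140 alternatives for the mean ovary RPKM of the 28 named genes, 131 stayed within the SD of the ovary libraries and 9 did not. Most alternatives left out 1 of the 3 ovary libraries, which cannot move a mean beyond that SD. The 131 are therefore no measure of stability, and all 9 came from rescaling the libraries. The sign of the log2 differences of the set is fixed by the rule when a library is left out or the pseudocount changes, so it is no result. The order of the top genes changed: HSALG022412.1 and HSALG029686.1 averaged 71.5 and 73.2 RPKM with trimmed-mean factors and 43.1 and 75.7 RPKM without ovary replicate 1, in place of 94.0 and 76.7 RPKM.

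The sources used here do not say whether replicate numbers pair the libraries. Deviations of same-numbered libraries of different tissues correlated at -0.35 to 0.333, with 9 of 45 pairs over 0.1. For libraries of other numbers the range was -0.369 to 0.356, with 17 of 90 pairs over 0.1. Of 18 libraries, 8 correlated best with their own number. With 3 libraries per tissue these values cannot settle whether libraries are paired. With the replicate number as a block, 156 genes of the set and 563 of all genes were called. Depth limits the antenna most, at 2.37 to 4.73 M reads a library.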

Other observations

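Many identifiers of the set carry consecutive numbers. Among the 161 genes, 36 (22.4%) had another gene of the set at the next or previous number, in 16 runs, of which 13 hold 2 genes, 2 hold 3 and 1 holds 4. Of the 254 places at the next or previous number of a gene of the set that hold an HSALG row, 40 (15.7%) hold a gene of the set, where 0.792% of all HSALG rows belong to it. The sources used here do not say whether numbering follows the genome, and no coordinates were used. Of the 208 rows next to the set that do not belong to it, 91 reached 1 RPKM in each ovary library, 43.8%, against 42.4% of all HSALG rows, a difference that was not tested.

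The run of 4, HSALG026572.1 to HSALG026575.1, has lengths of 444, 1449, 231 and 426 bases. In ovary replicates 1, 2 and 3 its genes stood at 20.3, 12.3 and 24.7 RPKM, at 23.7, 9.32 and 16.8 RPKM, at 6.65, 7.92 and 5.30 RPKM, and at 3.71, 1.56 and 1.28 RPKM. HSALG010354.2 and HSALG010355.2, of 2346 and 717 bases, stood at 67.3, 34.4 and 32.6 RPKM and at 64.5, 34.5 and 48.7 RPKM. HSALG022421.1 and HSALG022422.1, of 192 and 222 bases, were both lowest in ovary replicate 1, at 4.80, 15.2 and 14.9 RPKM and at 16, 43.7 and 42.9 RPKM. These runs are examples picked from the 16. Not all neighbours were alike: HSALG029685.1 stood at 18.4, 1.98 and 2.84 RPKM beside the even values of HSALG029686.1. In 9 of the 20 consecutive pairs both genes were highest in the same ovary library, 45%, against 37.6% of all pairs of the set.

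Identifier numbers from 20000 upward made up 41.6% of the set, against 18% of the 8618 genes at 1 RPKM or more in each ovary library and 49.7% of all HSALG rows. Identifiers that end in 1 after the point made up 54% of the set, 44.7% of those ovary genes and 64% of all HSALG rows. The sources used here do not say what the numbers and endings stand for.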
